A study of Homo sapiens with 5 samples.

Results

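The sites described here are 622 JMJD3 binding sites of untreated human BJ fibroblasts at which no JMJD3 site was listed after exposure to ionizing radiation (IR). They are 622 of the 4717 JMJD3 sites of untreated cells (13.2%), and they were chosen by the site lists themselves: a site belongs to the set when it shares not even 1 bp with any of the 35133 JMJD3 sites of irradiated cells. BJ cells are foreskin fibroblasts, here a line that divides without limit because it expresses telomerase, and all libraries come from this single line. In the irradiated groups the cells received 10 Gy of X-rays and were taken for chromatin immunoprecipitation (ChIP) 6 h later by the sample labels, or 1 h less by the text of the study. The untreated groups received no radiation. The JMJD3 antibody was raised in rabbits against a part of JMJD3, and the p53 antibody was DO-1.

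JMJD3, also called KDM6B, removes methyl groups from lysine 27 of histone H3. This mark is placed by Polycomb complexes at silent genes, and JMJD3 is therefore studied as an enzyme that helps to open them. How the enzyme finds its places on chromatin is studied through its partner proteins, among them transcription factors. p53 is a transcription factor that is stabilized after DNA damage and binds a defined DNA element as a tetramer.

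JMJD3 and p53 were each measured in 1 library per condition, so no value here can be set against the spread between replicates, and untreated and irradiated cells are compared without a test. The lists hold positions only, with no height, score or read number. Depth is unknown for every library, and a site that is not listed after IR was not called there, which does not show that JMJD3 was absent. The width of a site is the only magnitude in the files. The ranges given in parentheses after shares are exact 95% binomial intervals by the method of Clopper and Pearson. Such an interval takes in counting error alone, and it is too narrow where sites lie side by side. The set was selected on the comparison of both JMJD3 lists, so its distance to JMJD3 sites of irradiated cells describes the rule. The p53 lists took no part in the choice.

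Among the 622 sites, 287 (46.1%, 42.2 to 50.1%) had a JMJD3 site of irradiated cells within 1 kb and 335 (53.9%, 49.9 to 57.8%) had none. Distances are given between the facing border bases. In the near group the median distance was 292 bp (quartiles 115.5 and 555.5 bp), and the nearest site of irradiated cells lay on the left of 158 sites and on the right of 129. Of the whole set, 31 sites lay within 50 bp and 115 within 200 bp of a site of irradiated cells. In the far group the median distance was 9.81 kb, with quartiles of 3.11 and 39.8 kb. There were 165 sites farther than 10 kb from any JMJD3 site of irradiated cells, 32 farther than 100 kb and 1 farther than 1000 kb. The distances thus ran without a gap from a few bp to far over 100 kb. Of the set, 201 sites lay within 500 bp of a site of irradiated cells, 287 within 1000 bp and 349 within 2000 bp. The limit of 1 kb thus marked no break in the distances.

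**Figure D1:**
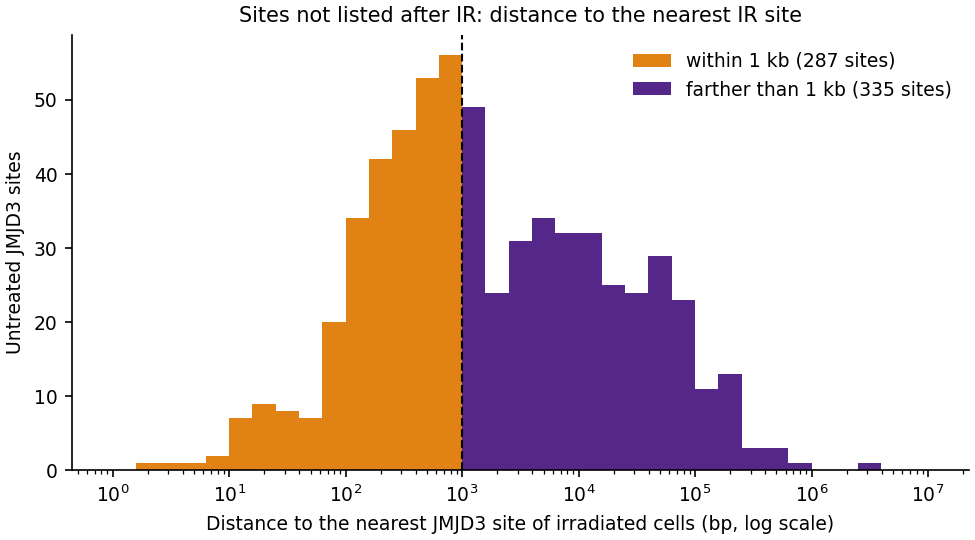
Histogram of the 622 JMJD3 sites of untreated cells not listed after IR, by distance to the nearest JMJD3 site of irradiated cells (x axis in bp, log scale; y axis, number of sites). Orange bars are the 287 sites within 1 kb, purple bars the 335 sites farther away, and the dashed line marks 1 kb, around which both groups meet without a break.

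At the border of the rule, the sites just inside it differed from those just outside it by a few bp. The smallest distances of the set were 2 bp on chromosome 1 (113042916 to 113043115, hg18), 3 bp on chromosome 7 (6165516 to 6165730) and 4 bp on chromosome 1 (71293232 to 71293431). The smallest overlaps among the sites that were listed again were 1 bp on chromosome 8 (70729998 to 70730293), 3 bp on chromosome 19 (61732916 to 61733115) and 3 bp on chromosome 4 (124048999 to 124049221). Of the 4095 sites listed again, 66 (1.61%, 1.25 to 2.05%) shared at most 50 bp with sites of irradiated cells. The size of the set depended on the overlap asked for. It was 622 sites (13.2%) with 1 bp, 975 (20.7%) when 50% of the untreated site had to be covered, 1012 (21.5%) when its centre had to be, and 1145 (24.3%) when, as in the untreated list, only sites of irradiated cells of at least 200 bp were counted.

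The JMJD3 sites of irradiated cells nearest to the near group are described beside the whole list after IR. Both JMJD3 lists were used by the rule, and near sites often have untreated neighbours whose counterparts lie close by, so nothing is read from the difference. The 287 near sites had 277 different nearest sites, since some shared one. Of these 277 sites, 58 were the counterpart of another untreated site and 219 (79.1%, 73.8 to 83.7%) overlapped no JMJD3 site of untreated cells. In the whole list the share was 88.1% (87.8 to 88.4%). They had a median width of 205 bp, and 53.8% of them (47.7 to 59.8%) were at least 200 bp wide, against 44.0% (43.5 to 44.5%) of the whole list. The 335 far sites had 324 different nearest sites, with a median width of 178 bp, close to the 187 bp of the whole list. The sites of irradiated cells with the largest overlap to the untreated sites listed again had a median width of 352 bp.

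The share of sites not listed after IR was lower among wider sites. The rule fixes a part of this, since a wider site is more likely to share 1 bp with another, and the values are a description. The JMJD3 lists began at different widths, at 200 bp in untreated cells and at 125 bp in irradiated cells. In the untreated list, 195 of the 535 sites of exactly this width were not listed after IR (36.4%, 32.4 to 40.7%). The share was 17.5% (14.7 to 20.5%) for 201 to 220 bp, 15.7% (13.2 to 18.5%) for 221 to 250 bp, 12.1% (10.1 to 14.4%) for 251 to 300 bp, 6.48% (4.93 to 8.33%) for 301 to 400 bp and 3.27% (1.95 to 5.12%) for 401 to 600 bp. Over 600 bp, 2 of 402 sites were not listed (0.498%, 0.0603 to 1.79%). Sites of exactly 200 bp made up 37.3% of the far group (32.1 to 42.7%), 24.4% of the near group (19.5 to 29.8%) and 8.30% of the sites listed again (7.48 to 9.19%). The far group was thus the narrowest of the 3, with a median of 214 bp against 229 bp in the near group.

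**Figure D2:**
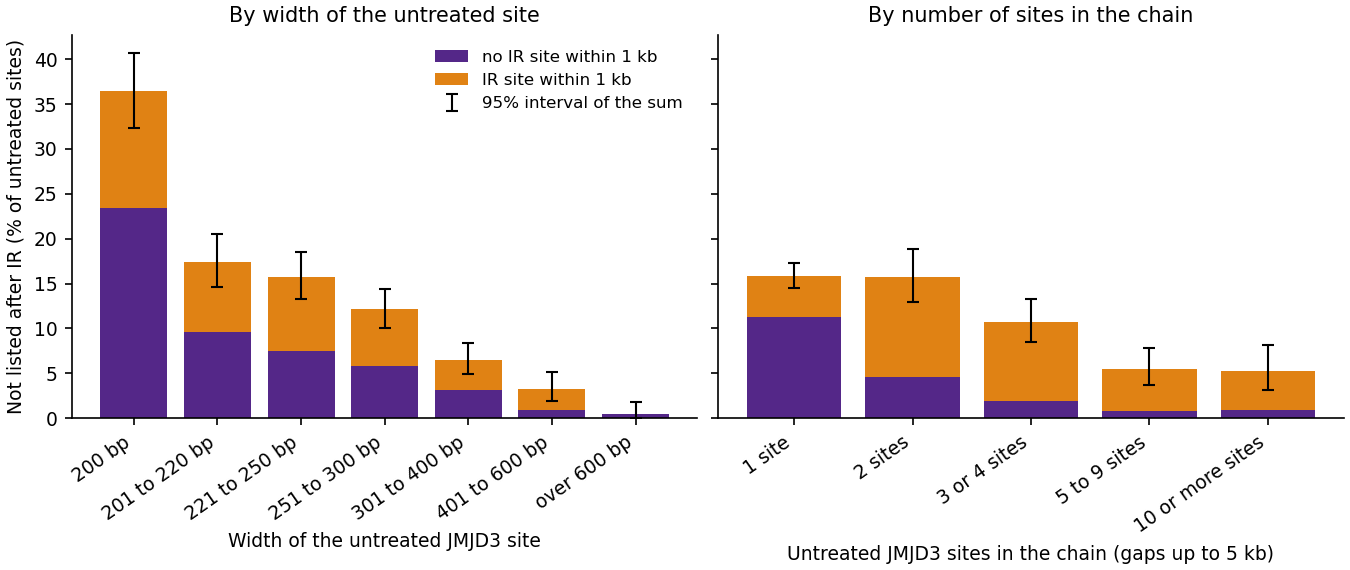
Share of JMJD3 sites of untreated cells not listed after IR (y axis, %), by width of the site (left) and by the number of untreated sites chained with gaps of up to 5 kb (right). Purple is the part with no JMJD3 site of irradiated cells within 1 kb, orange the part with one, and error bars are exact 95% binomial intervals of the sum; the share falls from 36.4% at 200 bp to 0.498% over 600 bp, and from 15.9% for single sites to 5.25% in chains of 10 or more.

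Wide sites without a counterpart were rare. Only 7 of the 598 untreated sites over 500 bp were not listed (1.17%, 0.472 to 2.40%). These 7 were picked out after their values were seen. Of them, 5 had no JMJD3 site of irradiated cells within 1 kb. The 7 sites lay on chromosomes 1, 6, 8, 10 and 13, with 3 on the short arm of chromosome 6 between 26 and 28 Mb. The widest site of the far group, on chromosome 6 from 27886089 to 27886929, was 841 bp wide and 13.3 kb from the nearest JMJD3 site of irradiated cells. The next, on chromosome 10 from 73706359 to 73707048, was 690 bp wide and 1624 bp from such a site, with a p53 site of irradiated cells 5719 bp away. The others were 589 bp wide (chromosome 6, 26212228 to 26212816), 555 bp (chromosome 6, 27889495 to 27890049) and 520 bp (chromosome 1, 43601742 to 43602261). Without the sites between 26 and 28 Mb on chromosome 6, the share over 500 bp was 4 of 583 (0.686%, 0.187 to 1.75%).

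The widest sites of the near group were found on 5 different chromosomes. They were 528 bp wide on chromosome 13 (22807808 to 22808335), 523 bp on chromosome 8 (37821403 to 37821925), 499 bp on chromosome 2 (43305756 to 43306254), 479 bp on chromosome 6 (27948474 to 27948952) and 468 bp on chromosome 19 (20518847 to 20519314). Their nearest sites of irradiated cells were 280, 854, 303, 300 and 743 bp away, in the same order. The nearest sites of irradiated cells were wider than 300 bp on chromosomes 8 and 2 (329 and 504 bp) and narrower than 200 bp on chromosomes 13, 6 and 19 (184, 128 and 137 bp).

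The 5 sites farthest from any JMJD3 site of irradiated cells had no untreated neighbour within 5 kb. The farthest, on chromosome 11 from 51435898 to 51436112, was 215 bp wide and 3393 kb from the nearest site of irradiated cells, and 4039 kb from the nearest other untreated site. The next were on chromosome Y (12323472 to 12323750; 851 kb), chromosome 22 (24062288 to 24062505; 423 kb), chromosome 16 (47612674 to 47612873; 411 kb) and chromosome 3 (168869004 to 168869203; 403 kb). All 5 were between 200 and 279 bp wide, and the nearest other untreated JMJD3 site was 757 kb away or more.

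By the median distance, the set stood farther apart in the untreated list than the sites that were listed again, but its near group stood closer. The median distance to the nearest other untreated JMJD3 site was 38.0 kb for the set and 6.97 kb for the sites listed again. The value for the set was 14956 bp when 50% of the untreated site had to be covered, 11592 bp when its centre had to be, 5262.5 bp in the wider 50% of the list and 92643 bp with sites merged within 1 kb. The sites listed again were not measured under these alternatives, so these values have no counterpart to be set against. With the rule of 1 bp the median was 2.53 kb in the near group and 141 kb in the far group. This split follows in part from the rule, since an untreated neighbour that was listed again places a site of irradiated cells close by. In all, 403 of the 622 sites (64.8%, 60.9 to 68.5%) had no untreated neighbour within 5 kb, against 52.2% (50.7 to 53.8%) of the sites listed again. Among sites of at most 250 bp these shares were 68.5% (63.9 to 72.8%) and 64.9% (62.5 to 67.3%), and their intervals overlapped.

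Runs were defined as chains of 3 or more untreated JMJD3 sites with distances of at most 5 kb. Of the 622 sites, 120 lay in such runs (19.3%, 16.3 to 22.6%), where 32.8% of all untreated sites and 34.8% (33.4 to 36.3%) of those listed again did. The share was 34.8% (29.3 to 40.7%) in the near group and 5.97% (3.68 to 9.07%) in the far group. As with the spacing, this split follows in part from the rule. The near share was that of the sites listed again, and the far share lay below it. Seen by the length of the chain, 15.9% (14.5 to 17.3%) of single sites were not listed, 15.8% (13.0 to 18.9%) in chains of 2, 10.7% (8.49 to 13.2%) in chains of 3 or 4, 5.47% (3.66 to 7.81%) in chains of 5 to 9 and 5.25% (3.14 to 8.17%) in chains of 10 or more. Sites in longer chains were also wider, with a median of 248 bp for single sites and 376 bp in chains of 10 or more. Among sites of at most 250 bp, 16.1% of the set (12.8 to 19.9%) and 23.6% of those listed again (21.5 to 25.8%) lay in runs, and these intervals did not overlap. The share of such sites was 32.1% (25.5 to 39.3%) in the near group and 4.03% (1.95 to 7.29%) in the far group. By length of the chain, the narrow sites showed no steady fall: 22.8% (20.6 to 25.2%) of single sites were not listed, 27.3% (21.9 to 33.4%) in chains of 2, 19.3% (14.3 to 25.1%) in chains of 3 or 4, 10.4% (5.83 to 16.9%) in chains of 5 to 9 and 16.5% (9.06 to 26.5%) in chains of 10 or more. The interval of the longest chains overlapped that of single sites, and the interval of chains of 5 to 9 lay below it.

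Within runs, sites at an end were missing after IR more often than inner sites. Of 634 end sites 78 were not listed (12.3%, 9.85 to 15.1%), and of 913 inner sites 42 (4.60%, 3.34 to 6.17%). The median width was 302 bp at the ends and 354 bp inside. Among sites of at most 300 bp the shares were 18.9% (14.7 to 23.7%) at the ends and 9.92% (7.04 to 13.5%) inside. The part of width in this difference beyond that limit was not tested.

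Missing sites had a missing neighbour more often than the sites listed again, although most had no neighbour within 5 kb. Where an untreated site that was not listed had another untreated site within 5 kb, the nearest such neighbour was also not listed in 58 of 219 cases (26.5%, 20.8 to 32.9%), against 140 of 1956 (7.16%, 6.05 to 8.39%) for the sites listed again. With the first site at most 250 bp wide, the shares were 25.5% (18.5 to 33.7%) and 8.64% (6.42 to 11.3%). A pair of sites that are each other's nearest neighbour enters these counts from both sides. Whole runs were seldom missing. Of 317 runs, 227 had every site listed again, 68 lacked 1 site, 15 lacked 2 and 7 lacked 3 or more, and in 2 runs no site was listed after IR.

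The run with most missing sites lay on chromosome 5 from 178438743 to 178454916 and held 13 untreated sites over 16.2 kb. Its 9 leftmost sites were all listed again and its 4 rightmost sites were all missing after IR. The missing sites were 277, 327, 200 and 215 bp wide, and 3 of them had no JMJD3 site of irradiated cells within 1 kb. On chromosome 6, the run from 27884366 to 27890049 consisted of 3 sites of 317, 841 and 555 bp, and no JMJD3 site of irradiated cells lay anywhere in its 5684 bp. Of the 2 runs missing whole, it was the one with no new site between the old ones.

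In the other run without a listed site, on chromosome 8 from 70694795 to 70699435, the 3 untreated sites were 245, 251 and 200 bp wide and 4 sites of irradiated cells lay within the run, none of them on an untreated site. A run of 4 sites on chromosome 2 from 66514785 to 66522436 kept only its second site, which was 238 bp wide. The run of 4 sites on chromosome X from 152429121 to 152433363 also kept only its second site. That kept site overlapped a p53 site of irradiated cells (152430561 to 152430838), and the missing site on its right lay 215 bp from the same p53 site. The other 2 runs that lacked 3 sites, on chromosomes 14 and 7, held 6 untreated sites each.

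Across chromosomes the share of untreated sites not listed after IR was mostly close to that of the whole list. Among the 23 chromosomes with at least 50 untreated sites it ran from 8.70 to 20.1%, with a median of 12.6%. It was highest on chromosome 6 (53 of 264, 20.1%, 15.4 to 25.4%) and chromosome 21 (11 of 56, 19.6%, 10.2 to 32.4%). It was lowest on chromosome 15 (18 of 207, 8.70%, 5.24 to 13.4%) and chromosome 17 (24 of 245, 9.80%, 6.38 to 14.2%). The intervals of chromosomes 6 and 4 (40 of 204, 19.6%, 14.4 to 25.7%) lay above the 13.2% of all untreated sites, and no interval lay below it. The median width of the untreated sites was 276 bp on chromosome 6, 277 bp on 21, 294 bp on 15, 280 bp on 17 and 245.5 bp on 4. Over all untreated sites it was 269 bp, and the part of width in these shares was not tested. For sites without a neighbouring site of irradiated cells within 1 kb, the share was 13.2% on chromosome 4 (27 of 204, 8.91 to 18.7%), 11.7% on chromosome 6 (31 of 264, 8.12 to 16.3%) and 3.38% on chromosome 15 (7 of 207, 1.37 to 6.84%), against 7.10% over all untreated sites (335 of 4717, 6.39 to 7.87%).

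**Figure D3:**
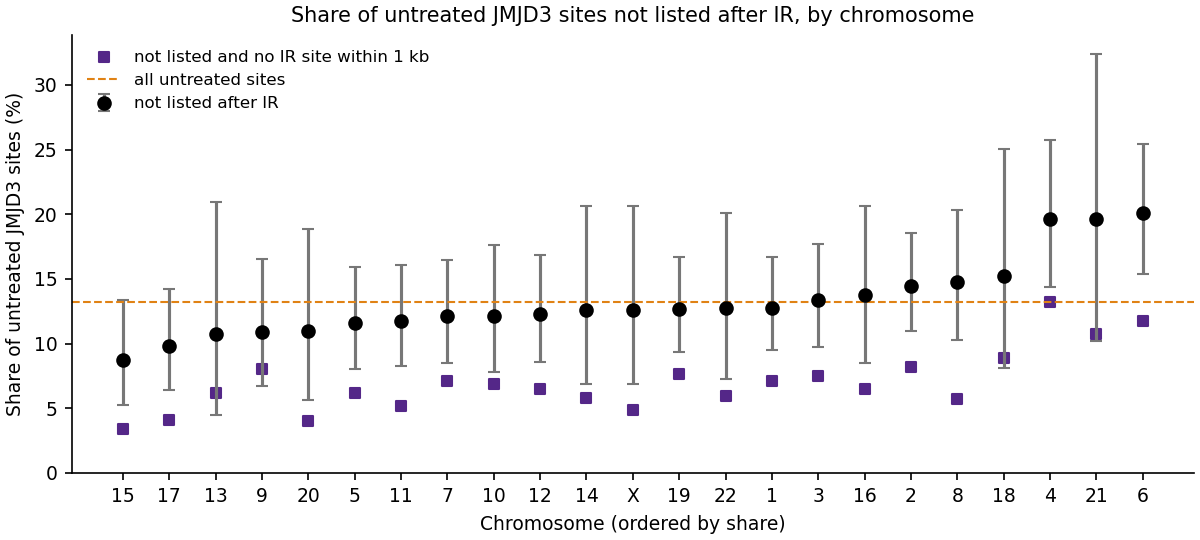
Share of JMJD3 sites of untreated cells not listed after IR on each of 23 chromosomes (y axis, %; chromosomes on the x axis ordered by share). Black points are all sites not listed with exact 95% binomial intervals, purple squares those with no JMJD3 site of irradiated cells within 1 kb, and the dashed line is the 13.2% of all untreated sites; chromosomes 4 and 6 lie above it with their intervals.

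On a scale of 1 Mb, most windows with a missing site held a single one. No matched count was made for other untreated sites, so neither scatter nor grouping is read from this. The missing sites fell into 455 of the 1393 windows of 1 Mb that held an untreated site, 352 of these windows held a single one, and 13 held 4 or more. The largest number was 9, in each of 3 windows, which were picked out after their values were seen: chromosome 6 from 26 to 27 Mb, chromosome 6 from 27 to 28 Mb and chromosome 8 from 70 to 71 Mb.

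The chromosome 6 windows lie on the short arm, which is known to carry the largest cluster of human histone genes. Histone genes are read at a high rate while DNA is copied. Sites were not assigned to genes here. Between 26128800 and 27968333 there were 44 untreated JMJD3 sites, and 18 of them were not listed after IR (40.9%, 26.3 to 56.8%), 12 with no JMJD3 site of irradiated cells within 1 kb. On the rest of chromosome 6 the share was 35 of 220 (15.9%, 11.3 to 21.4%), an interval that holds the 13.2% of the whole list. The missing sites of the stretch ranged from 200 to 841 bp with a median of 300 bp, and those listed again from 200 to 1793 bp with a median of 476.5 bp. Among its sites over 300 bp, 9 of 31 were missing (29.0%, 14.2 to 48.0%), against 67 of 1785 (3.75%, 2.92 to 4.74%) elsewhere in the genome.

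The number of sites after IR in the same stretch comes from the list that defined the missing sites, and it is given as a description. The stretch held 55 JMJD3 sites of irradiated cells, 1.25 for each untreated site, where chromosome 6 as a whole held 7.15. Among the 95 windows of 1 Mb with at least 10 untreated sites, the 2 windows of the stretch had the lowest ratios (1.22 and 1.35), with a median of 3.79 over the 95 and 1.60 as the lowest value of the other 93. Their shares of missing sites were 50% (9 of 18) and 34.6% (9 of 26), and the median over the 95 windows was 8.33%. No p53 site of either condition lay in the stretch, and the nearest p53 site of irradiated cells to the widest missing site was 2792 kb away.

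The chromosome 8 stretch looked different. From 70543564 to 70740640 there were 26 untreated sites, of which 9 were not listed after IR (34.6%, 17.2 to 55.7%). Only 2 of the 9 had no JMJD3 site of irradiated cells within 1 kb. The 197 kb held 111 such sites, with a median width of 189 bp. The missing sites were 200 to 357 bp wide, and no p53 site was listed there in either condition. Most of its missing sites thus lay within 1 kb of a site of irradiated cells.

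**Figure D4:**
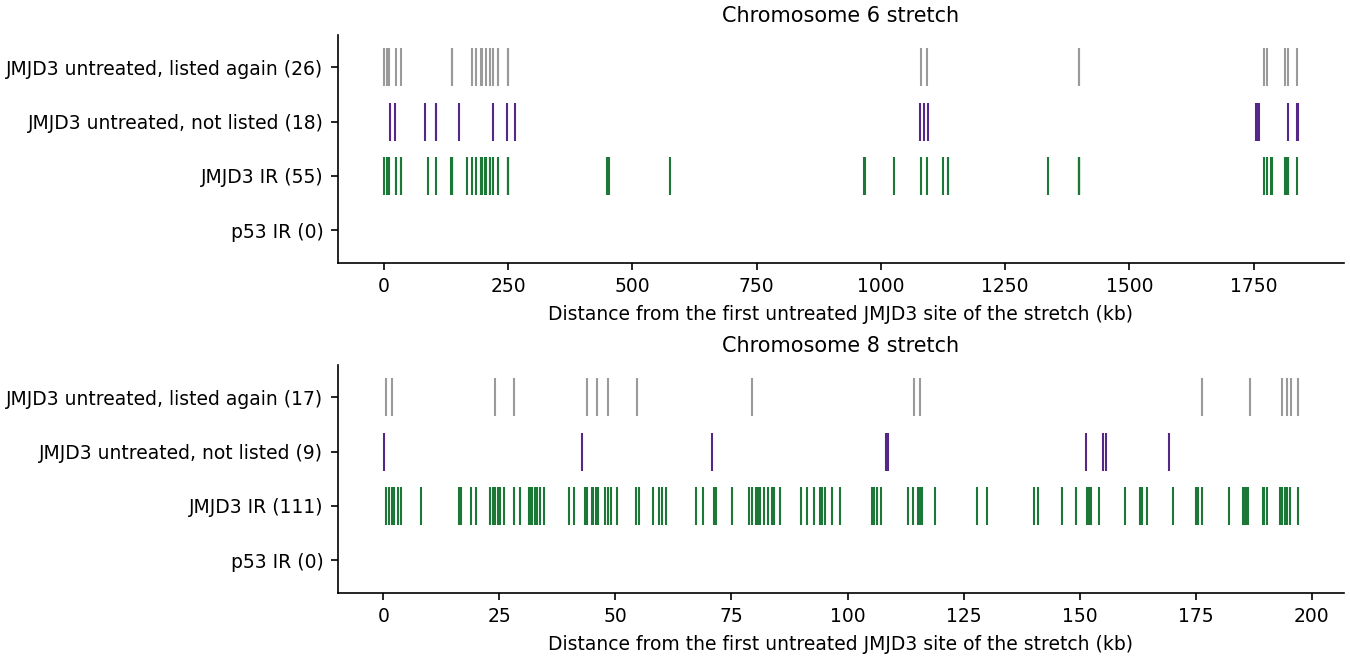
Maps of the 2 stretches with most missing sites, on chromosome 6 (top) and chromosome 8 (bottom). Each tick is a site, placed by its centre as distance in kb from the first untreated JMJD3 site of the stretch (x axis); rows give, from top to bottom, untreated JMJD3 sites listed again, untreated JMJD3 sites not listed, JMJD3 sites of irradiated cells and p53 sites of irradiated cells, with the number of each in parentheses (26, 18, 55 and 0 on chromosome 6; 17, 9, 111 and 0 on chromosome 8).

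p53 sites were rarely found at JMJD3 sites of untreated cells, whether these were listed after IR or not. Of the 622 sites, 4 overlapped a p53 site of irradiated cells (0.643%, 0.175 to 1.64%), where 1.84% of all untreated JMJD3 sites and 83 of the 4095 listed again (2.03%, 1.62 to 2.51%) did. The interval of the set reached just into that of the sites listed again. The share of the set depended on the overlap that defined it, and was 1.23% (12 of 975, 0.638 to 2.14%) when 50% of the untreated site had to be covered, 0.988% (10 of 1012, 0.475 to 1.81%) when its centre had to be and 1.48% (17 of 1145, 0.867 to 2.37%) with sites of irradiated cells of at least 200 bp. The sites listed again were not measured under these rules. Among sites of at most 250 bp the shares were 3 of 435 of the set (0.690%, 0.142 to 2.0%) and 30 of 1551 listed again (1.93%, 1.31 to 2.75%), and the intervals overlapped. A p53 site of irradiated cells lay within 10 kb of 33 of the 622 sites (5.31%, 3.68 to 7.37%), against 7.17% of all untreated sites and 305 of those listed again (7.45%, 6.66 to 8.30%). Within 100 kb the shares were 31.4% (27.7 to 35.2%) and 37.2% (35.7 to 38.7%). The median distance to the nearest p53 site of irradiated cells was 209 kb for the set and 166 kb for the sites listed again. With 1 library per list, none of these differences has a test against replicate error.

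The near and far groups had overlapping intervals for each share with a p53 site. The median distance to the nearest p53 site of irradiated cells, which has no interval here, was 186 kb in the near group and 242 kb in the far group. An overlap was found at 1 of 287 near sites (0.348%, 0.00882 to 1.93%) and 3 of 335 far sites (0.896%, 0.185 to 2.59%), and a p53 site of irradiated cells lay within 10 kb of 4.53% (2.43 to 7.62%) and 5.97% (3.68 to 9.07%).

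**Figure D5:**
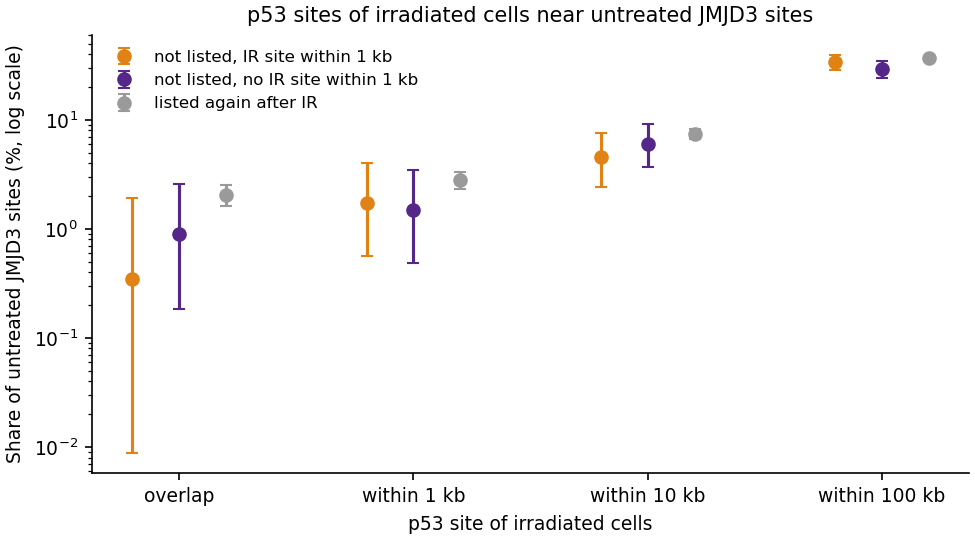
Share of JMJD3 sites of untreated cells (y axis, %, log scale) with a p53 site of irradiated cells overlapping, within 1 kb, within 10 kb or within 100 kb (x axis). Orange and purple points are sites not listed after IR with and without a JMJD3 site of irradiated cells within 1 kb, grey points are sites listed again, and bars are exact 95% binomial intervals; the overlap shares are 0.348, 0.896 and 2.03%.

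The 4 sites with a p53 overlap were all 213 to 271 bp wide. On chromosome 1, the JMJD3 site from 233900176 to 233900388 overlapped a p53 site of irradiated cells from 233899869 to 233900228. It also lay 45 bp from a p53 site of untreated cells, and its nearest JMJD3 site of irradiated cells was 38.2 kb away. On chromosome 11, the site from 74331834 to 74332057 overlapped a p53 site from 74331772 to 74332016, with the nearest JMJD3 site after IR at 11.9 kb. On chromosome 17, the site from 41489995 to 41490265 lay wholly inside a p53 site from 41489982 to 41490376, with the nearest JMJD3 site after IR at 12.2 kb. At these 3 places a p53 site was thus listed after IR and the JMJD3 site of untreated cells was not.

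The fourth site, on chromosome X from 153408746 to 153408984, belonged to the near group. It overlapped a p53 site of irradiated cells from 153408183 to 153408867, and a JMJD3 site of irradiated cells lay inside the same p53 site, from 153408491 to 153408633. JMJD3 was thus listed at this p53 site in both conditions, at places 113 bp apart.

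No site of the set overlapped a p53 site of untreated cells. The 0 of 622 allows a share of up to 0.482% by the limit of 3 counts and up to 0.591% by the exact interval, and the share over all untreated JMJD3 sites was 0.0636% (3 of 4717), so a difference was not detectable at this number of sites. A p53 site of untreated cells lay within 10 kb of 4 of the 622 sites (0.643%, 0.175 to 1.64%) and of 35 of the sites listed again (0.855%, 0.596 to 1.19%), and these intervals overlapped. The 4 sites were among the 335 far sites (0.326 to 3.03%), and the 0 of 287 near sites had an overlapping interval (0 to 1.28%). Beside the chromosome 1 site, these were on chromosome 16 (65821018 to 65821386), chromosome 19 (877577 to 877842) and chromosome 3 (154367854 to 154368053), at 4000, 6584 and 6428 bp.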

How the data were processed

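Tags were aligned by the authors to hg18 with Bowtie 0.12.7, keeping unique alignments, and peaks were called per library with MACS2, with IgG as control; the IgG sample described in the labels is of untreated cells. The threshold is not given in the sources used here, and IgG reads were not used here. Each of the 4 deposited files gives chromosome, start and end, printed counting from 1. Overlaps (at least 1 bp), distances and chains were computed with numpy 2.4.6 and pandas 2.3.3 in Python 3.11.15, intervals with scipy 1.17.1 and figures with matplotlib 3.10.9. The steps recovered 2000 of 2000 planted states on simulated data, and bedtools 2.31.1 gave the same 622 sites and the same distances. No genome or annotation of hg18 was used here, so no sequence is printed and no gene is assigned.

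Sites named in the text are the 5 widest of the near and of the far group, the 5 farthest from JMJD3 after IR, those overlapping p53, the 3 closest to the border of the rule on each side, the 5 runs with most missing sites (ties by share), every run missing whole, and the 2 highest and 2 lowest chromosomes. Chromosome 4, the 1 Mb windows, both stretches, the sites over 500 bp and those within 10 kb of a p53 site of untreated cells were chosen after their values were seen. The set, the definitions and the width limits were chosen with earlier results of these data known. Alternatives are given in the closing section.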

Additional observations from a re-analysis of the deposited data

How the results depend on the processing

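Of 54 comparisons of a value with an alternative, 24 stayed within the 95% interval of the value and 30 moved out of it. The share of the 4717 untreated sites not listed rose to 20.7% with 50% coverage of the width required, to 21.5% with the centre required inside a site after IR, and to 24.3% with sites after IR of at least 200 bp alone, and it was 5.64% in the wider 50% of the list. In the same order, the share of missing sites with a JMJD3 site after IR within 1 kb was 65.6, 66.9, 34.0 and 58.3%, and 36.5% with untreated sites merged within 1 kb. It was 32.3, 56.1 and 65.9% with limits of 500 bp, 2 kb and 5 kb. The share in runs was 25.9% for 50% of the width, 28.7% for the centre, 30.3% for wider sites and 6.04% for merged sites, and 6.91 and 25.1% with distances of up to 1 and 10 kb, and 35.2 and 7.40% for at least 2 and 5 sites. The median width was 235 bp (50% of the width), 238.5 bp (centre), 226 bp (sites of at least 200 bp) and 310.5 bp (wider sites). The median distance to the nearest untreated site was 14956 bp for 50% of the width, 11592 bp for the centre, 5262.5 bp for wider sites and 92643 bp for merged sites. The share near a p53 site was 1.61% within 1 kb and 31.4% within 100 kb. Stricter rules, looser limits and subsets of the list change the sites counted by their construction, and no other cause was tested. The p53 overlap of the set was 0.493 to 1.48% under the 6 alternatives run for it. These values lay inside the wide interval of 0.643% (0.175 to 1.64%), but the highest was far above 0.643%. Autosomes alone moved no value. Leaving out the chromosome 6 stretch was added after seeing the data. No paired analysis was possible because no condition was repeated. The unknown depth and peak threshold of both JMJD3 libraries limit every statement on missing sites.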

Other observations

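The numbers of JMJD3 sites after IR around the missing sites come from the list that defined them and are given as a description. Within 100 kb, the median number of JMJD3 sites of irradiated cells was 12 around the near group, 4 around the far group and 12 around the sites listed again. For untreated sites of at most 250 bp these medians were 12, 4 and 9. The rule itself gives every near site and every site listed again at least 1 such neighbour, and it bars the far group from any within 1 kb.

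Beside the stretches on chromosomes 6 and 8, the highest shares of missing sites among the 95 windows of 1 Mb with at least 10 untreated sites were on chromosome 21 from 35 to 36 Mb (4 of 10, 40.0%) and at the start of chromosome 4, from 0 to 1 Mb (5 of 13, 38.5%). In the first, 5.70 JMJD3 sites were listed after IR for each untreated site, and in the second 4.85, both above the median of 3.79. In 29 of the 95 windows no site was missing. Of 314 chains of exactly 2 untreated sites, 231 kept both, 67 kept 1 and 16 kept none.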
